A study of Mus musculus with 108 samples.

Results

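The nuclear-encoded genes of the respiratory chain were described in single acinar cells of the mouse pancreas. The genes were chosen by name: protein-coding genes whose symbol begins with Ndufa, Ndufb, Ndufc, Ndufs, Ndufv, Uqcr, Atp5 or Cox4 to Cox8, together with Sdha, Sdhb, Sdhc and Sdhd, without assembly factors (Ndufaf), without pseudogenes, and with a mean of at least 1 TPM over the cells. TPM is a read share corrected for transcript length and scaled to a total of 1000000 per cell, so levels can be compared between genes. Of 45195 gene rows in the table, 76 met the whole rule, while 8 assembly factor genes, 11 pseudogene rows and 9 genes of lower mean with such a name were left out. The members were 36 genes of complex I, 4 of complex II, 8 of complex III, 12 of complex IV and 16 of complex V. The members lay on 19 chromosomes, with 3 of them (Ndufa1, Ndufb11 and Cox7b) on the X chromosome.

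The study asked how far acinar cells of the normal pancreas differ from one another. Acinar cells make and secrete the digestive enzymes. They were taken from untreated male C57BL/6 mice aged 12 weeks, freed with collagenase and Accutase, and each sample was 1 cell. Its polyA RNA was copied into cDNA and amplified by a procedure based on SMART-seq2, which carries no molecular identifiers. The labels name no animal, day or plate, so the cells form 1 group that counts as 1 sample. Cells are not replicates, values carry the spread between cells, and no p-value was computed.

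The respiratory chain sits in the inner mitochondrial membrane. Complexes I and II pass electrons from NADH and succinate to ubiquinone, complex III passes them on to cytochrome c, and complex IV passes them to oxygen. Complexes I, III and IV pump protons, and complex V, the ATP synthase, uses the proton gradient to make ATP, which acinar cells spend on protein synthesis and secretion. Complexes I, III, IV and V also hold subunits encoded in mitochondrial DNA. No gene row matched to the annotation was mitochondrially encoded, so these could not be analysed here. Cyc1, a nuclear-encoded subunit of complex III at 18.6 TPM, does not have a name of the rule. The sums that follow are those of the named genes and not of whole complexes. Complex II is encoded in the nucleus alone.

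Cells are named by the number in their label. The number of genes at or above 1 TPM, the level that counts as detected, ran from 2624 to 6946 (cell 40) with a median of 4156, and read depth is unknown, since TPM keep none. Digestive enzymes took a mean of 87.99% of 1000000 TPM. In 21 cells, those numbered 92 and above, the values add up to no more than 990520 TPM and to as little as 788380 TPM, where 1000000 is the full sum; these are called short-total cells and the other 87 full-total cells. The enzyme percentage is taken of 1000000 in every cell, so it understates the enzymes' part of the deposited sum in short-total cells. Of 11 acinar markers, 10 were detected in every cell. Of 8 ductal markers, 2 were detected in every cell, and all cells but 4 held at least 3; their summed level had a median of 218 TPM in full-total and 211 TPM in short-total cells, and had a Spearman correlation of 0.03 with the summed TPM of the members over cells. Cell 40 also held 4 of 5 endothelial markers and cell 96 held 4 of 7 stellate and fibroblast markers, while 4 of 4 lymphocyte and 4 of 6 macrophage markers were detected in no cell. Without cells 31 and 40 the members' share of the total was 0.274%, against 0.275% with them, and the part of cell 96 in the results was not tested.

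The 76 genes together took 2748 ± 493 TPM per cell (SD over the 87 full-total and 21 short-total cells), or 0.275% ± 0.0493 of a total of 1000000. The lowest cell was cell 53 at 1615 TPM, the median cell stood at 2750 TPM, and the highest was cell 26 at 3997 TPM, followed by cell 24 at 3903 TPM and cell 40 at 3850 TPM. The coefficient of variation (CV, the SD over the mean) of this sum over 76 genes was 0.179. Of each cell's deposited TPM that were not digestive enzyme, the members took a mean of 2.56% ± 0.439. On that scale the order of cells differed: cell 26, highest in TPM, was lowest at 1.65%, and cell 16, in which enzymes reached 91.98%, was highest at 3.81%. Cell 26 was also the cell in which 9 of the 76 genes had their highest value, against 8 in cell 51 and 7 in cell 40. The cell with the fewest genes detected (2624, a short-total cell) held the lowest value of 12 members, ties included, and cell 53 that of 11.

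Complex I took the largest sum, at a mean of 955 ± 169 TPM or 34.8% of the members' total, from 525 TPM in cell 53 to 1344 TPM in cell 26. Complex V followed with 757 ± 138 TPM (27.5%), from 467 TPM in cell 53 to 1121 TPM in cell 40. Complex IV had 621 ± 127 TPM (22.6%), from 328 TPM in cell 53 to 997 TPM in cell 40. Complex III had 368 ± 81.3 TPM (13.4%), from 164 TPM in the cell with the fewest genes to 649 TPM in cell 26. Complex II, with 4 genes, had 47.1 ± 11.3 TPM (1.71%), from 22.4 TPM in cell 96 to 75.7 TPM in cell 24. Since complex I has most genes, the order per gene was another: the median member mean was 47.3 TPM in complex IV, 40.9 TPM in complex V, 37.5 TPM in complex III, 20.3 TPM in complex I and 6.38 TPM in complex II. The division of the total among complexes varied little between cells. The share of complex I had a CV of 0.0506, that of complex V 0.0607, that of complex IV 0.0660 and that of complex III 0.0957, while the small share of complex II had a CV of 0.216.

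**Figure D1:**
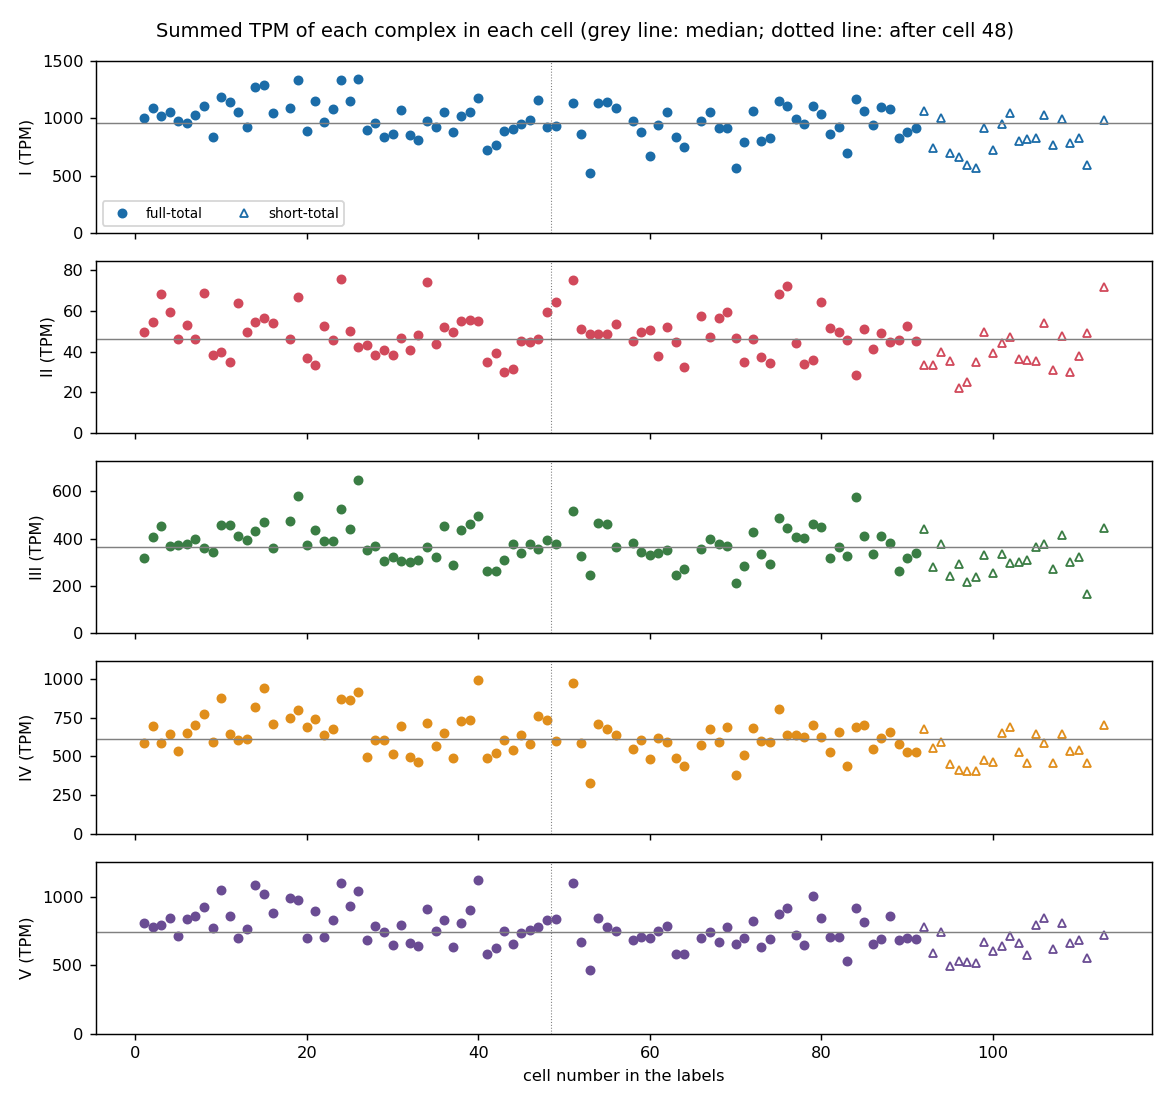
Summed TPM of the member genes of each complex (vertical axis, from 0) in each cell against the cell number in the labels (horizontal axis). Filled circles are the 87 full-total cells, open triangles the 21 short-total cells, the grey line is the median over cells and the dotted line follows cell 48. Cell 53 is lowest in complexes I, IV and V, and the ranges of short-total and full-total cells overlap in each complex.

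Within complex I the genes spanned a 33.9-fold range of means. The highest was Ndufa1, a small accessory subunit of the membrane arm (chromosome X, 37187588 to 37191163, minus strand, GRCm38), at 48.50 TPM in the lowest cell, 101.2 TPM in the median cell and 187 TPM in the highest. Ndufb9, another accessory subunit, had a mean of 91.9 ± 21.7 TPM (34.2 to 155 TPM), and Ndufa3 had 57.5 ± 25.3 TPM (10.2 to 157 TPM). No cell lacked these transcripts. The lowest was Ndufs1, the large iron-sulfur subunit of the NADH-oxidising arm (chromosome 1, 63143596 to 63176833, minus strand), with a lowest value of 0, a median of 2.85 TPM and a highest of 10.3 TPM. Ndufa11, an accessory subunit, had a mean of 4.05 ± 1.43 TPM, and Ndufs4, an accessory subunit known for its link to Leigh syndrome in people, 4.06 ± 1.70 TPM. The 7 core subunits, which carry the flavin and iron-sulfur clusters or line the path to ubiquinone, had a median mean of 11.6 TPM against 21.4 TPM for the 29 accessory subunits. Ndufs7, which holds the cluster next to ubiquinone, was the highest core gene at 34.6 ± 10.7 TPM, and Ndufv1, which binds flavin and NADH, had 11.5 ± 4.54 TPM.

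In complex II, Sdhb, the iron-sulfur subunit (chromosome 4, 140961203 to 140979193, plus strand), stood apart from its partners in level, at 10.3 TPM in the lowest cell, 29.4 TPM in the median cell and 61.1 TPM in the highest. The flavoprotein Sdha had a mean of 6.21 ± 3.19 TPM. The membrane anchors Sdhd and Sdhc had 6.55 ± 3.36 and 5.21 ± 3.33 TPM. In the mature enzyme these 4 subunits are present in equal number, and the mean of the Sdhb transcript was 5.60 times that of Sdhc.

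Complex III was led by its small subunits. Uqcrq, which lies beside cytochrome b (chromosome 11, 53427922 to 53430831, minus strand), had 26.5 TPM in the lowest cell, 91.6 TPM in the median cell and 173 TPM in the highest, Uqcr11 had a mean of 90.97 ± 34.9 TPM, and Uqcrh, the hinge protein for cytochrome c1, had 61.02 ± 16.3 TPM. The core proteins Uqcrc1 and Uqcrc2 had 16.9 ± 5.66 and 11.1 ± 3.44 TPM, and Uqcrfs1, the Rieske iron-sulfur protein that hands electrons to cytochrome c1, had 17.1 ± 5.24 TPM. The 5 small subunits thus had a median mean of 61.02 TPM and lay above the 3 larger catalytic and core genes.

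Complex IV was the most even in level, with a 3.94-fold range. Cox4i1, a subunit that spans the membrane and binds ATP (chromosome 8, 120668222 to 120674207, plus strand), had 35.9 TPM in the lowest cell, 83.8 TPM in the median cell and 166 TPM in the highest. Cox6b1 and Cox6a1 followed at 84.2 ± 26.8 and 81.2 ± 27.7 TPM. The lowest were Cox5a, a subunit on the matrix side, at 33.7 ± 9.71 TPM, Cox7a2 at 29.8 ± 7.88 TPM and Cox7a2l at 21.9 ± 9.16 TPM. Cox7a2l is classed as a factor of supercomplexes of III and IV, and its function in these mice was not tested. Ndufa4, named for complex I but assigned to complex IV, had 48.2 ± 15.4 TPM, close to the median of that complex.

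In complex V the highest gene was Atp5g1, a gene of the membrane ring subunit c (chromosome 11, 96068852 to 96075670, minus strand), with 43.2 TPM in the lowest cell, 99.9 TPM in the median cell and 173 TPM in the highest. Atp5b, the catalytic beta subunit of the F1 head, had a mean of 86.5 ± 22.2 TPM. Its partner Atp5a1, the alpha subunit, which forms the head with it in equal number, had 24.1 ± 6.50 TPM. Atp5e, the small epsilon subunit, had 75.1 ± 23.7 TPM. The lowest were Atp5a1, Atp5f1 (subunit b of the peripheral stalk) at 23.7 ± 6.79 TPM and Atp5j2 (subunit f of the membrane part) at 23.4 ± 8.38 TPM. The 4 genes of the peripheral stalk ran from 23.7 to 54.1 TPM and the 5 genes of the F1 head from 24.1 to 86.5 TPM, so the parts of the enzyme overlapped in level.

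**Figure D2:**
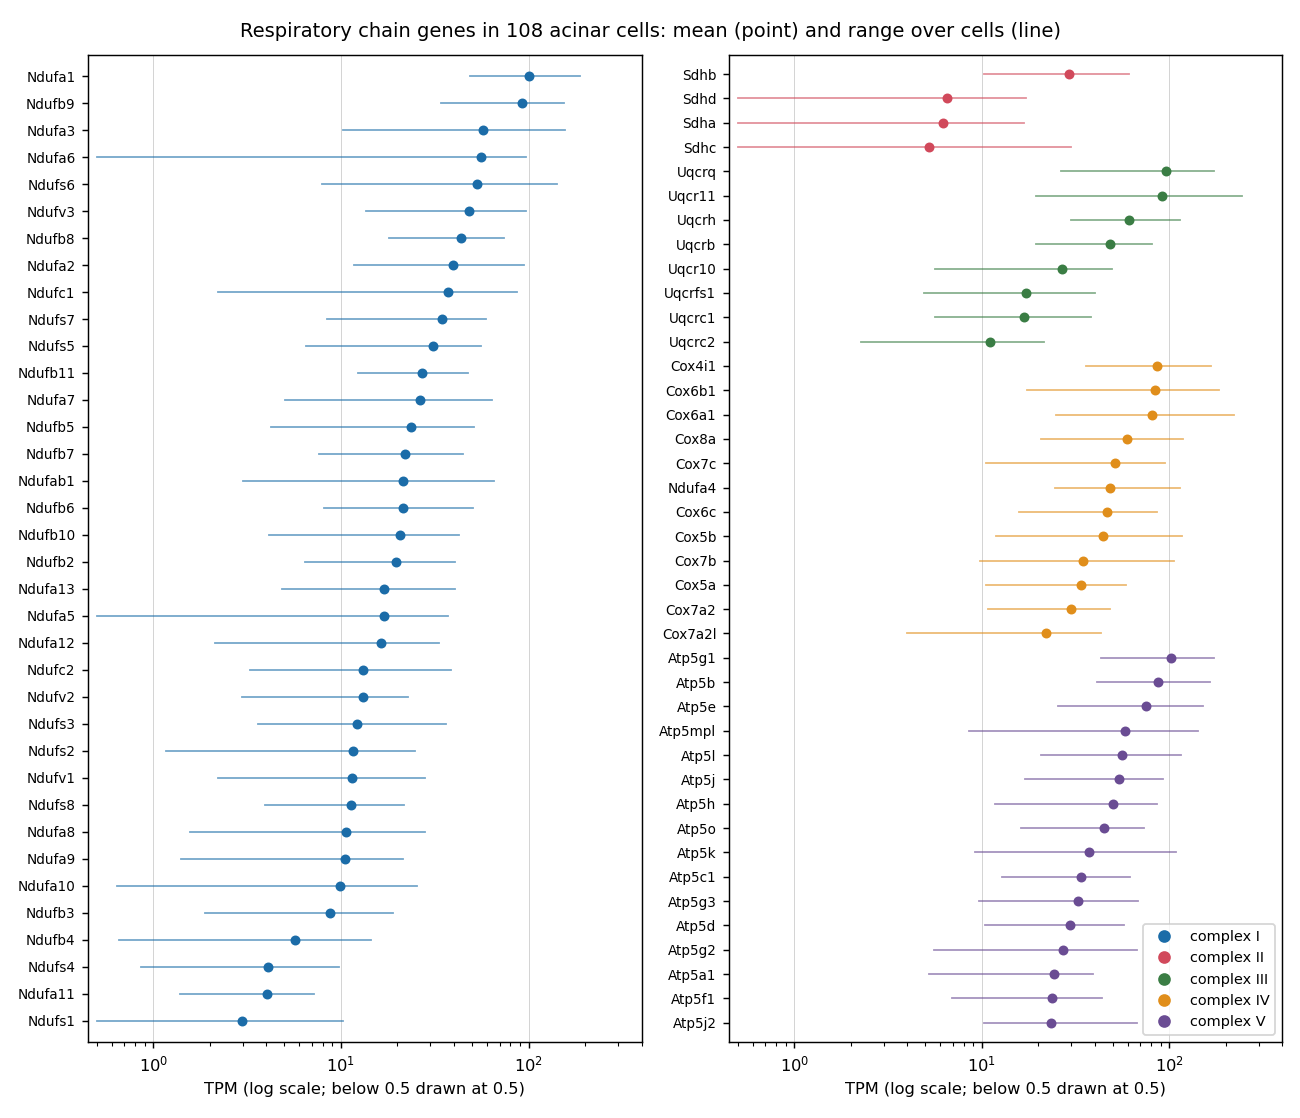
Mean TPM (point) and lowest to highest value over the cells (line) of each of the 76 genes, on a logarithmic axis, with complex I on the left and complexes II to V on the right, coloured by complex. Values below 0.5 TPM are drawn at 0.5. Means run from 2.97 TPM for Ndufs1 to 101.3 TPM for Atp5g1, and 9 genes reach below 1 TPM in at least 1 cell.

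Shorter members had the higher levels when the complexes were pooled. Across the 76 members, the Spearman correlation between mean TPM and the length of the longest annotated coding sequence was -0.50, and across 6790 protein-coding genes detected in at least 10% of cells it was -0.37. By complex it was -0.79 in complex III (8 genes), -0.38 in complex I, -0.31 in complex V, -0.08 in complex IV and 0 in complex II (4 genes). The median mean was 49.8 TPM for the 18 members with under 300 coding bases, 26.8 TPM for the 38 members with 300 to under 600 bases, and 15.0 TPM for the 20 members with 600 bases or more. Atp5b was the highest of the long genes and Atp5j2 the lowest of the short ones. Members had a median coding length of 426 bases against 1176 bases for the protein-coding genes tested. TPM are divided by transcript length, and how that division and the amplification of short cDNA bear on the relation was not tested.

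Detection was close to complete. Of the 76 genes, 67 (88.2%) were at or above 1 TPM in every cell, whereas 11.1% of the 7227 genes detected in at least 10% of cells were. The 67 included every member of complexes III, IV and V, 30 of 36 genes of complex I and, in complex II, Sdhb. Members were chosen for their mean, so the shares are not matched for level: among genes with a mean of at least 10 TPM, 65 of 67 members (97.01%) were detected in every cell and 84.8% of all such genes were. Ndufs1 was missed most often, being detected in 96 cells (88.9%, exact 95% interval 81.4% to 94.1%) and missed in 12. Sdhd was missed in 3 cells, Sdha, Sdhc and Ndufs4 in 2 each, and Ndufa6, Ndufa5, Ndufa10 and Ndufb4 in 1 each. The gap of Ndufa6, an accessory subunit of complex I with a mean of 56.1 TPM, was in the cell with the fewest genes detected (2624), where it was listed at 0. That cell also missed Ndufs1 and Sdhd. Cell 48, with 2983 genes detected, missed Ndufs1, Ndufa10 and Sdha, and a short-total cell with 4514 genes detected, above the median, missed Ndufa5, Sdhc and Sdhd. No other cell missed 3 members.

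The name rule left out 9 genes with a mean under 1 TPM, and these were mostly isoforms known from other tissues. Nearest below the threshold was Atp5s, at a mean of 0.369 TPM in 13 detecting cells, followed by Cox7a1, an isoform of heart and skeletal muscle, at 0.0728 TPM in 3 cells. Cox6b2, known from testis, was detected in 2 cells and Cox6a2, known from heart and muscle, in 1. Cox7b2 and Cox4i2 were below 1 TPM in each cell, and Cox8b, Cox8c and Ndufa4l2 were listed at 0 in each cell; detection in 0 cells allows a share of up to 2.78%. The members nearest above the threshold were Ndufs1 at 2.97 TPM, Ndufa11 at 4.05, Ndufs4 at 4.06, Sdhc at 5.21 and Ndufb4 at 5.68 TPM. The row Ndufb4c, annotated as a pseudogene, had 19.4 TPM and was detected in all cells but 1, and since reads of near-identical copies can be divided between rows, the level of Ndufb4 is uncertain. Other small subunits have pseudogene copies too, though the remaining 10 pseudogene rows had means under 1 TPM.

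For most families with several genes a single gene supplied nearly the whole transcript pool. Cox4i1, Cox6a1, Cox6b1 and Cox7b each made up at least 99.9% of their family's summed TPM on average, and Cox8a and Ndufa4 made up 100%. Subunit c was different. It is encoded by 3 genes that give the same mature protein with different import sequences, and all of them were detected in every cell. Atp5g1 made up 62.7% ± 6.88 of the subunit c transcripts (from 41.1% in cell 99 to 76.8% in a short-total cell), Atp5g3 20.4% ± 5.52 and Atp5g2 16.9% ± 4.66. Atp5g1 was the highest of the 3 in every cell but cell 99, where Atp5g3 reached 43.8%. On the deposited scale the Spearman correlations over cells were 0.48 for Atp5g1 with Atp5g2, 0.43 for Atp5g1 with Atp5g3 and 0.42 for Atp5g2 with Atp5g3, and with median-of-ratios size factors 0.20, 0.14 and 0.17. Among the Cox7a genes, Cox7a2 made up 58.3% ± 12.2 and Cox7a2l 41.5% ± 12.1 of the family. Cox7a2 was the higher in 78 cells and Cox7a2l in 30, with a Cox7a2l share from 9.92% in a short-total cell to 68.98% in cell 60.

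No member reached the level at which a gene was called variable on the deposited scale. The squared CV of each gene was set against a smooth trend over genes of like mean, and a gene at or above 2 times the trend was called variable. None of the 76 members was called, and 12.0% of the 7227 genes were. At or above the trend itself lay 25 of 76 members (32.9%), where 50.0% of all genes did. Ndufa3 came nearest to the threshold with 1.95 times the trend (10.2, 52.995 and 157 TPM in the lowest, median and highest cell). It was followed by Ndufab1, the mitochondrial acyl carrier protein, at 1.79 (2.99, 19.9 and 65.2 TPM), Ndufc1 at 1.78 (2.21, 34.7 and 86.7 TPM), Uqcr11 at 1.73 (19.6, 87.5 and 244 TPM) and Atp5k, subunit e of ATP synthase, at 1.71 (9.24, 34.6 and 108.8 TPM). These 5 belong to 3 complexes. The steadiest for their level were Ndufa11 at 0.35 times the trend, Ndufs4 at 0.49, Uqcrc2 at 0.50, Atp5a1 at 0.54 and Atp5j, coupling factor 6 of the stalk, at 0.55. The median ratio was 0.85 in complexes I and V, 0.87 in complex III, 0.98 in complex IV and 0.99 in complex II. The call of Ndufa3 depended on scaling. With each cell rescaled to 1000000 it reached 2.07 times the trend, with the enzymes left out 2.19, and with median-of-ratios size factors, which set the cells to a common median gene, 2.29, where Cox7b also passed at 2.22.

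**Figure D3:**
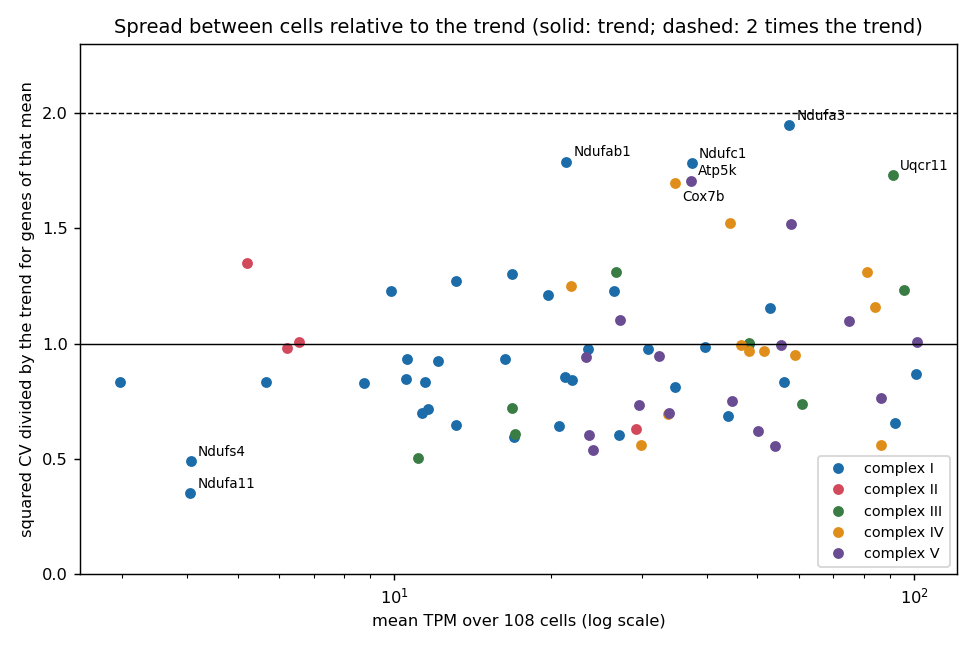
Squared CV over the cells divided by the trend for genes of that mean (vertical axis, from 0) against mean TPM (logarithmic axis) for the 76 genes, coloured by complex. The solid line is the trend and the dashed line 2 times the trend. The 76 points lie below the dashed line, with Ndufa3 nearest to it at 1.95, and 25 lie at or above the solid line.

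The members varied together across cells, and pairs within a complex were as a whole no closer than pairs across complexes on the deposited scale. The median Spearman correlation of log2(TPM + 1) over the 2850 pairs of members was 0.24, against 0.06 over pairs of all genes tested. Levels matter here: among genes with a mean of at least 10 TPM the median pair stood at 0.14, and among members with that mean at 0.26. The points share a fixed total, the same libraries and unknown depths, and the values are descriptions. Pairs in the same complex had a median of 0.22 (850 pairs) and pairs in different complexes 0.24 (2000 pairs), with SDs over pairs of 0.13. By complex, the median was 0.38 within complex IV, 0.30 within complex V, 0.20 within complexes I and III and 0.14 within complex II. Between complexes IV and V it was 0.32 and between III and V 0.29, above the value within complex III. When each gene was set against the mean of each complex without the gene itself, 17 of 76 were closest to their own complex: 10 of 36 in complex I, 4 of 12 in complex IV, 3 of 16 in complex V and 0 in complexes II and III. Among the 36 genes of complex I, complex III was the closest for 8 and complex II for 2. Means over few genes are noisier, and the part of complex size in these counts was not tested. The count to be had without any grouping by complex was not computed, so these counts have no baseline. Complex IV was the exception by medians, being higher within itself than with any other complex, here and under the 3 other scalings.

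The size of these correlations changed with scaling. With median-of-ratios size factors the median pair of members stood at 0.10, at 0.10 within complexes and 0.09 between them, against 0.02 for all genes tested and 0.003 for genes with a mean of at least 10 TPM. The order of pairs within and between complexes thus turned, by less than the SD over pairs. Complex IV had the highest value within a complex under each of the 4 scalings, here 0.18, and complex III was at -0.01. The count of members closest to their own complex was 19 of 76 on that scale. The summed TPM of the complexes were correlated over cells at 0.85 to 0.86 for complex I with III, IV and V and for IV with V, at 0.79 and 0.80 for complex III with IV and V, and at 0.43 to 0.48 for complex II with each of the other complexes. Under median-of-ratios scaling the 10 pairs of complexes ran from 0.08 to 0.74. The members' sum itself had a Spearman correlation of 0.39 with the number of genes detected and of -0.31 with the enzyme share, and the part of either in the pairs was not tested.

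**Figure D4:**
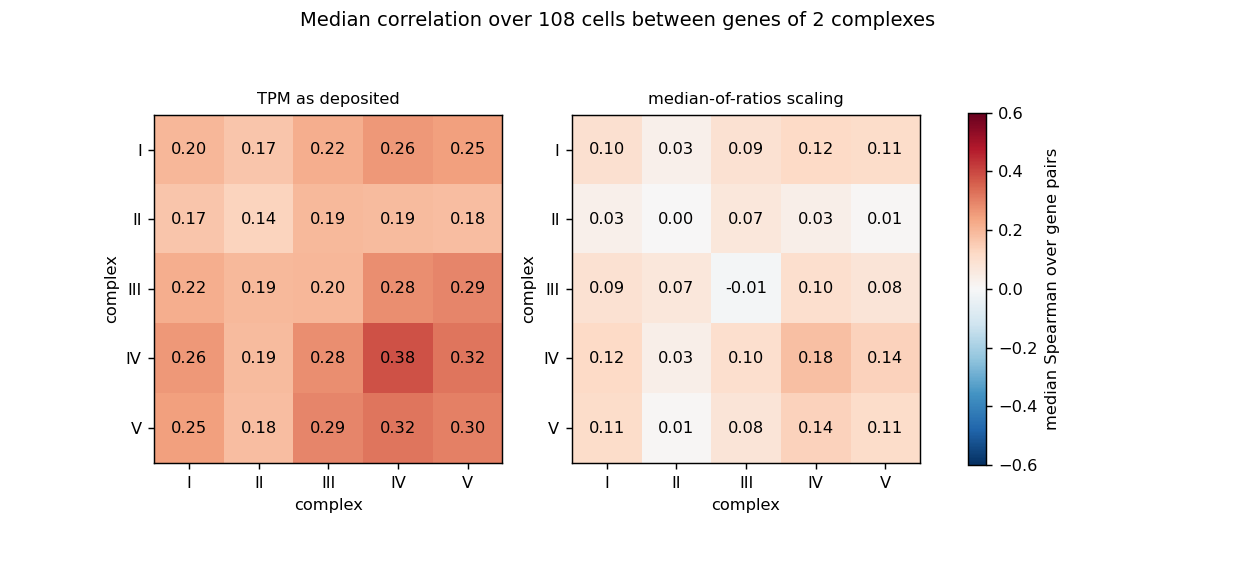
Median Spearman correlation over the cells of log2(TPM + 1) between genes of each pair of complexes, on TPM as deposited (left) and with median-of-ratios size factors (right). The colour scale runs from blue (negative) through white (0) to red (positive). The value within complex IV is the highest in both panels (0.38 and 0.18), and complex III on the diagonal (0.20 and -0.01) lies below its values with complexes IV and V (0.28 and 0.29 on the left).

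Most of the closest pairs crossed complexes, as most pairs of members do. Uqcr11 and Cox6a1, of complexes III and IV, had the highest correlation at 0.63 (0.51 with median-of-ratios size factors), followed by Cox6b1 and Atp5e at 0.61 (0.53) and Cox6a1 and Atp5g1 at 0.60 (0.35). Of the 15 highest pairs, 3 were within a complex (Atp5b with Atp5a1 at 0.57, Uqcrq with Uqcr11 at 0.56 and Cox6a1 with Cox5b at 0.55), whereas 29.8% of all pairs are. On the deposited scale negative values were few, with 116 of 2850 pairs (4.07%) below 0, and the lowest was -0.19 for Sdha and Uqcrh. On that scale each of the 76 members had a positive correlation with the mean of the others, with a median of 0.47. Values ran from 0.13 for Ndufs1 and Cox7a2l to 0.77 for Cox6a1. Over full-total and short-total cells pooled, Cox6a1, a subunit of complex IV, was thus the gene nearest to the common course of the members. Cox7a2l, of the same complex, was among the farthest. The other 7151 genes tested had a median correlation of 0.14 with the members' mean on the same scale. The shares of positive and negative values over all genes tested, and these counts under other scalings, were not computed. Cox6a1 also had a large difference between short-total and full-total cells (-0.70 on the log2 scale as deposited), and the part of that difference in its correlations was not tested.

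The promoters of some of these genes are shown because the promoters of respiratory genes are known for sites of NRF1, a factor that binds as a dimer to paired GCGC runs, and of GABP, an ETS factor. RefSeq gave a window from 250 bases before to 50 after the start (GRCm38.p6) for 63 of the 76 members and for 27025 genes in all. The NRF1 motif with 1 free base (GCGC, then A and any base, then GCGC), searched like the others on both strands, was found in 17 of 63 member windows (26.98%), in 13.9% of the windows of genes tested and in 5.19% of all windows. The palindrome with T at the free base, which is contained in the former, was found in 5 (7.94%, against 2.76% and 1.07%). The ETS letters CCGGAAG were found in 16 (25.4%), near the 24.8% of genes tested and above the 9.93% of all windows. The YY1 letters AAGATGGCG were found in 7 (11.1%, against 4.60% and 1.64%), of which 5 in complex I and 2 in complex V. The CRE letters TGACGTCA were found in 4 members (6.35%, against 3.92% and 2.03%), the ERR letters TCAAGGTCA in 2 (3.17%, against 0.329% and 0.466%) and TATAAA in 5 (7.94%, against 8.25% and 15.7%). A match is a run of letters and not a shown site. The following stretches are the 150 bases before the RefSeq start, 5′ to 3′ on the strand of the gene, with NRF1 or ETS letters of either strand in capitals. Cox6a1 and Uqcr11 are the pair of highest correlation, Atp5e belongs to the next pair, and Ndufs5, an accessory subunit of complex I, shows an NRF1 match without an ETS match.
Cox6a1, chr5:115348959-115349108, minus strand: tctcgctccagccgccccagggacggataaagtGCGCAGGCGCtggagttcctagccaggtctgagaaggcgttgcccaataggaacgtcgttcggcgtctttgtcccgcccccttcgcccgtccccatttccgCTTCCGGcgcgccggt
Uqcr11, chr10:80406822-80406971, minus strand: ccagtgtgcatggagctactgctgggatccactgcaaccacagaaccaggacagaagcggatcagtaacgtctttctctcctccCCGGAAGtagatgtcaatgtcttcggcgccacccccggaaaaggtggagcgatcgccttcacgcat
Atp5e, chr2:174464102-174464251, minus strand: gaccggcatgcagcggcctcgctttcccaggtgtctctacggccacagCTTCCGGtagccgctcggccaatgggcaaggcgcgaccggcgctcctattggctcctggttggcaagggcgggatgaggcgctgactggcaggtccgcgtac
Ndufs5, chr4:123718187-123718336, minus strand: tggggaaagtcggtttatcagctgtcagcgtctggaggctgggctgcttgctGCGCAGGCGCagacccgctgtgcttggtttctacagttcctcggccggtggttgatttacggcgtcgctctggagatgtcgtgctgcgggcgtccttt

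Cox6a1 and Uqcr11 both held an ETS match, as did 25.4% of member windows and 24.8% of those of genes tested. Cox6a1 also held an NRF1 match of the free-base form. The pair was picked for its correlation, and a link between motifs and correlation was not tested. A window of Cox6a1 holds the palindrome as well, not wholly within the bases shown. Of the 63 windows, 29 (46.03%) held NRF1 (free-base form) or ETS letters, against 35.2% of genes tested and 13.99% of all genes, and 4 (6.35%) held both, against 3.47% and 1.121%. Many members also faced another gene: 18 of 76 (23.7%) had a protein-coding neighbour on the other strand whose start lay within 1000 bases in the opposite direction, against 12.4% of the protein-coding genes tested. The nearest was Rps28, a ribosomal protein gene 10 bases from Ndufa7, at 338 TPM with a correlation of 0.30 to Ndufa7. Tatdn1, 18 bases from Ndufb9, had a mean of 0.771 TPM and a correlation of -0.17, and Timm8b, a mitochondrial import chaperone 98 bases from Sdhd, had 9.09 TPM and -0.01. Rps28 was thus far above its member in mean TPM, and Timm8b was near its member and above it. Each of the other neighbours, Tatdn1 among them, had a lower mean than its member. Gm27021, Asb15 and Morn5, the neighbours of Cox4i1, Ndufa5 and Ndufa8, had a mean of 0 TPM.

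Outside the members, the genes that followed their mean most closely had means from 55.7 to 317 TPM. The 10 highest Spearman correlations with the members' mean score were those of Rps27l (0.75), Gstp1 (0.75), Sec61b (0.73), Serf2 (0.72), Rpl36al (0.69), Fth1 (0.69), Rpl7a (0.69), Ppia (0.68), Mif (0.67) and Chchd2 (0.67), each detected in every cell and with 315 to 798 coding bases. Gstp1 is a glutathione transferase, Sec61b a subunit of the protein-conducting channel of the endoplasmic reticulum, Fth1 the ferritin heavy chain and Chchd2 a mitochondrial protein. The median over the other 7151 genes was 0.14. With median-of-ratios size factors, 2 of these 10 were again among the 10 highest, Rps27l at 0.55 and Sec61b at 0.47.

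Short-total cells had lower levels of most members on the deposited scale, as of most genes. On log2(TPM + 1), 72 of 76 members (94.7%) had the lower mean in the short-total cells, where 77.6% of all genes tested did, and the median difference was -0.26 for members and -0.15 for all genes. Lower by at least 1.5-fold were 7 members (9.21%), where 4.29% of all genes were, and higher by at least 1.5-fold were 0 members, where 0.443% were. Members and all genes are not matched for level here: their median means were 29.3 and 1.35 TPM. The 1 TPM added before the logarithm shrinks the differences of low genes more, and its part in these comparisons was not tested. The largest differences were those of Sdhd at -0.76 (median 6.60 TPM in full-total and 3.85 TPM in short-total cells), Atp5g2 at -0.74 (28.6 and 16.5 TPM) and Cox6a1 at -0.70 (84.5 and 48.3 TPM). The highest were Atp5e at 0.04 (73.4 and 71.03 TPM), Ndufa3 at 0.02 (54.6 and 50.9 TPM) and Uqcrh at 0.02 (58.6 and 65.2 TPM). The members' sum ran from 1766 to 2995 TPM in short-total cells and from 1615 to 3997 TPM in full-total cells, so the ranges overlapped. Short-total cells also had fewer genes detected (median 3939 against 4224), and the short sum, the cell numbers and whatever else those cells share cannot be told apart. Per the labels' protocols some cells received spike-in RNA, without saying which; spike-in rows were not analysed here, and whether they account for the short sums was not tested.

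The direction of that difference was set by the scaling. With each cell rescaled to 1000000 the members' median difference was -0.19 (65 of 76 lower), with the enzymes left out it was 0.11 (24 lower), and with median-of-ratios size factors it was 0.02 (34 lower). The same scalings put the median of all genes at -0.12, -0.02 and -0.02, so relative to all genes the members stood at -0.12 on the deposited scale, -0.07 when rescaled, 0.12 without the enzymes and 0.03 with median-of-ratios factors. No direction for the members as a set held across the scalings. The genes named above as extremes on the deposited scale kept their sign: Sdhd (-0.76, -0.72, -0.75 and -0.55), Atp5g2 (-0.74, -0.66, -0.39 and -0.46) and Cox6a1 (-0.70, -0.62, -0.34 and -0.42) were lower in short-total cells under the 4 scalings, whereas Atp5e (0.04, 0.13, 0.42 and 0.33), Ndufa3 (0.02, 0.10, 0.40 and 0.31) and Uqcrh (0.02, 0.10, 0.40 and 0.31) were higher on this scale, although the median TPM of Atp5e and Ndufa3 given above were lower. Because these genes were picked as extremes in the same cells, their kept sign is no separate support. The members' median also rose under each of the other scalings, which leaves a difference above 0 likely to stay there.

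Within the full-total cells, the 40 cells numbered 49 to 91 had lower values than the 47 cells numbered 1 to 48 for 67 of 76 members (88.2%), where 60.2% of all genes tested did, by a median of -0.14 for members and -0.04 for all genes. None of the members passed 1.5-fold in either direction, while 0.498% of all genes did so downward and 0.36% upward. The largest differences were those of Atp5g3 at -0.38 (medians 35.2 and 29.3 TPM), Ndufab1 at -0.35 (24.2 and 19.5 TPM) and Cox8a at -0.31 (67.4 and 52.8 TPM). Sdha had the highest at 0.12 (6.23 and 6.35 TPM), followed by Ndufs4 at 0.07 and Uqcr11 at 0.06. By complex, 32 of 36 genes of complex I, 7 of 8 of complex III, 11 of 12 of complex IV and 15 of 16 of complex V had the lower mean in the later cells, but 2 of 4 in complex II. Without the enzymes the members' median became 0.03 (28 lower) and that of all genes 0.08, and with median-of-ratios factors it was -0.06 (54 lower) against 0.00. Relative to the median of all genes, the members' median in the later cells stood at -0.10 as deposited, -0.10 rescaled, -0.05 without the enzymes and -0.06 with median-of-ratios factors. As for the short-total cells, members and all genes were not matched for level in these comparisons. What the cell number stands for is not given in the labels.

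**Figure D5:**
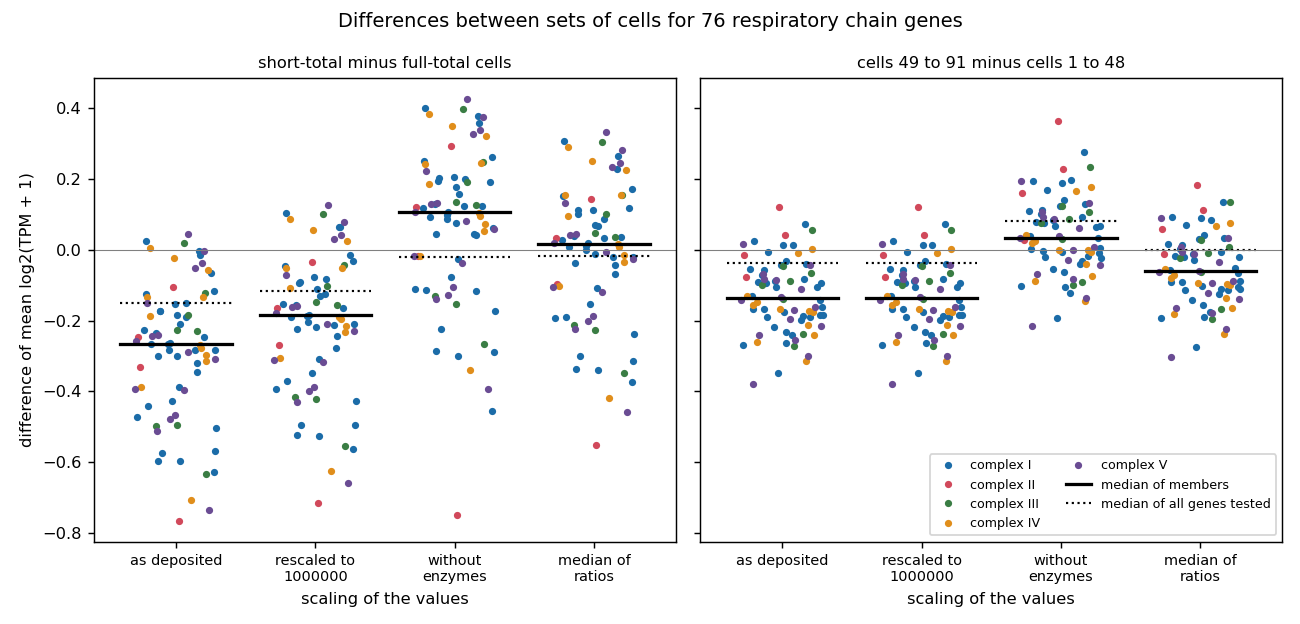
Difference of mean log2(TPM + 1) between sets of cells for the 76 genes (points, coloured by complex, spread sideways for visibility) under 4 scalings: short-total minus full-total cells on the left, cells 49 to 91 minus cells 1 to 48 on the right. Solid bars are the members' medians and dotted bars the medians of all genes tested. On the left the members' median moves from -0.26 as deposited to 0.11 without the enzymes, and on the right it lies below the median of all genes under each scaling.

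Genes around the chain that the name rule did not take in were mostly at lower levels than the members, whose median mean was 29.3 TPM. Members had to reach a mean of 1 TPM, whereas the lists of other genes had no such limit, so their medians are not on equal terms. Of 47 assembly factors, which build the complexes and insert their cofactors, the median mean was 1.30 TPM, 21 had a mean under 1 TPM and 3 were detected in every cell. The highest were Cox17, a copper chaperone for complex IV, at 24.6 ± 9.84 TPM, Coa3 at 21.1 ± 6.98 TPM and Uqcc2 at 12.3 ± 5.54 TPM. Of 42 assembly factors tested, 3 were called variable, where 12.0% of all genes tested were. These were Ndufaf2, Ndufaf6 and Cox18, at 2.51, 3.85 and 2.08 times the trend, from means between 0.837 and 2.05 TPM. Of 8 genes that carry electrons to, within or between complexes, Cyc1, the cytochrome c1 subunit of complex III, led with 18.6 ± 6.23 TPM, followed by the electron transfer flavoproteins Etfb at 17.9 ± 5.77 and Etfa at 10.3 ± 4.08 TPM. Cycs, cytochrome c, had 3.42 ± 2.49 TPM, below every member but Ndufs1. Among carriers and channels, Slc25a5, an adenine nucleotide carrier, had 45.6 ± 13.5 TPM and Slc25a3, the phosphate carrier, 35.5 ± 8.67 TPM, both above the members' median, and the channel Vdac2 14.5 ± 5.47 TPM.

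The pathways that feed the chain were lower than most subunits. The 13 citrate cycle genes had a median mean of 4.00 TPM, with Suclg1 at 17.8 ± 6.27, Idh3g at 13.7 ± 5.57 and Mdh2 at 13.3 ± 5.67 TPM the highest. Of 15 glycolytic genes the median mean was 6.50 TPM and 6 had a mean under 1 TPM. Gapdh had 25.1 ± 10.3, Aldoa 19.8 ± 5.89 and Ldha 12.0 ± 5.87 TPM. None of the 13 citrate cycle and 12 glycolytic genes tested was called variable, where 12.0% of all genes tested were. The 11 regulators of respiratory genes were at the lowest levels, with a median mean of 0.675 TPM: Tfb2m, a factor of mitochondrial transcription, had 2.00 ± 1.58, Tfam, its partner that packs mitochondrial DNA, 1.19 ± 1.42, and Polrmt, the mitochondrial RNA polymerase, 1.09 ± 1.96 TPM. Of 7 regulators tested, 2 were called variable: Polrmt and Gabpb1, a subunit of GABP, at 3.55 and 2.13 times the trend. In the short-total cells, where 77.6% of all genes tested had the lower mean on the deposited scale, so had 13 of 13 citrate cycle genes, 7 of 7 regulators, 7 of 8 electron carriers, 5 of 6 carriers and channels, 10 of 12 glycolytic genes and 33 of 42 assembly factors tested. These lists were not matched for level to all genes either.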

How the data were processed

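Single acinar cells of untreated mice were sequenced, 1 cell per sample (1 group). The deposited table holds TPM for each Ensembl gene row, rounded to 2 decimals; per the submitters' processing notes STAR 2.4.2a, RSEM 1.2.21, edgeR and mm10 were used, with no role given. Each column was matched to its sample by cell number. Symbols and 1-based coordinates are from GENCODE M21 (GRCm38, the same assembly as mm10), which matched 44548 of 45195 rows; coding length is the longest coding sequence there, used in place of protein length. Values were used as deposited, as log2(TPM + 1), rescaled to 1000000 with or without the enzymes, or with median-of-ratios size factors. Detection was set at 1 TPM, and tests ran over the 7227 genes that at least 10% of cells (11 or more) detected. The squared CV trend was a lowess fit (span 0.3, statsmodels 0.14.6) and correlations were Spearman's (scipy 1.17.1). Intervals are exact (Clopper-Pearson, 95%) and, like the limit of 3 cells for a count of 0, cover counting error only. Depth is unknown. Doublets were not sought, and every cell was kept. The functions were tested on simulated data.

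The members and all lists were chosen with earlier results of these data known, as were the bound after cell 48 and cells 31 and 40, a pair set apart in earlier work. Values were given for the 3 highest and 3 lowest means of each complex, the 5 highest and 5 lowest ratios to the trend, paralogues, the genes nearest the 1 TPM threshold, the 3 largest differences each way between sets of cells, the 10 genes most correlated with the members' score and the 3 highest of each other list. Further members were named after their values were seen. Alternatives were other pseudocounts, scalings, detection levels, filters, trend settings and sets of cells.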

Additional observations from a re-analysis of the deposited data

How the results depend on the processing

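Of 116 values under alternative settings, over 19 results, 96 kept their direction and stayed within the spread or within 1.5 times the reported count, 17 moved further and 3 turned in direction. The spread was the SD over cells for levels and shares, over pairs for pair correlations and over members for differences between sets. For the correlation with length it was 0.117. It is a wide bound and not an error of the result. The same-complex median went from 0.22 to 0.10 with median-of-ratios factors and counted as kept, with an SD over pairs of 0.13. Most of those that moved came from leaving out the digestive enzymes, which by construction enlarges every other share: the members' share became 2.56%, and the sums became 8919 TPM for complex I, 442.7 for complex II, 3416 for complex III, 5777 for complex IV and 7058 for complex V. That scaling also put 24 members lower in short-total cells (median 0.11) and 28 lower in cells 49 to 91 (median 0.033), both medians turning positive, and 1 member called variable. Median-of-ratios factors gave a median pair correlation of 0.10, and of 0.094 between complexes, 34 members lower in short-total cells with the median turning to 0.017, and 2 variable members. Rescaling to 1000000 gave 1 variable member, and a threshold of 1.5 times the trend gave 8. Detection at 10 TPM held in every cell for 32 members, and complex II with members of at least 10 TPM, that is Sdhb alone, summed to 29.2 TPM. The cause of the changes with scaling was not tested.

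Without cells 31 and 40 the members' share was 0.274%, 67 members were detected in every cell, 0 were variable and the median pair correlation was 0.23. With the full-total cells alone, 70 members were detected in every cell and the median pair correlation was 0.21. Settings added after the data were seen gave 0.18 with the short-total cells alone and 0.17 for differences between cells next in number. No paired analysis was possible because the cells form 1 group. Depth is unknown, so what it limits could not be measured, and a value of 0, such as that of Ndufa6 (56.1 TPM on average) in 1 cell, cannot be read as absence.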
